A study of Macaca nemestrina with 58 samples.

Results

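The 41 genes described here make the lipids of a stratified epithelium. They were listed in 6 roles: the mevalonate and squalene steps (7 genes), the sterol ring steps (7), sterol regulators (3), fatty acid synthesis and elongation (8), ceramide synthesis (8), and acylceramide processing and lipid transport (8). A gene was read through its brightest probe set among those whose annotation names that gene alone. By this rule 34 of the 41 genes had a probe set, and 33 of these were bright enough to be tested among 11199 genes in all. ELOVL3, a fatty acid elongase of sebaceous glands, lay below the brightness limit, with log2 values from 2.46 to 3.46 in the baseline biopsies of the animals later given DMPA. HMGCS1, LSS, SC5D, SCD, ELOVL4, PNPLA1 and SULT2B1 had no such probe set and are not analysed here.

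As background, cells build cholesterol from acetyl-CoA through mevalonate, squalene and a series of ring modifications. The genes of this route are switched on together by the transcription factor SREBF2 when sterols are scarce, and INSIG1 holds that factor back when they are plentiful. In keratinizing epithelia, very long fatty acids are joined to sphingoid bases to give ceramides. Ceramides with an added fatty acid chain are oxidized by the lipoxygenases ALOX12B and ALOXE3 and loaded into lamellar bodies by ABCA12, whose loss causes severe ichthyosis. In the vagina, the squamous epithelium thickens and matures under estrogen and thins under progestin.

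Vaginal pinch biopsies of 15 pig-tailed macaques (Macaca nemestrina) were hybridized to 58 Affymetrix arrays designed for the rhesus macaque. Of the animals, 9 were given DMPA, the injectable progestin depot medroxyprogesterone acetate, and 6 were given LNG, as the labels name the arm on a combined oral contraceptive. The 28 baseline samples, all taken with a labelled dose of 0, came from the follicular phase (10 early, 5 late) and the luteal phase (4 early, 9 late); 2 arrays of 1 animal and phase were averaged. The DMPA arm was sampled at 2 times, labelled 1D4 (8 samples) and 2D2 (9 samples), with doses labelled 0.5, 1.5 and 2.5 and no unit. The LNG arm was sampled at 2 times, labelled 5th and 7th (6 samples each), from 3 animals labelled High and 3 labelled Low, and 5 of these 12 arrays carry an unexplained mark A-. No strain or age is used here, and no untreated animal was followed over the same weeks, so the drug cannot be told apart from time or from repeated sampling. Samples of 1 animal are not independent, and each comparison was made with the animal as a block.

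Array medians (log2) ranged from 6.07 to 6.25. Precision is limited by how many arrays there are. Of the listed marker genes, 18 of 23 of mature squamous epithelium, 4 of 9 basal squamous and 13 of 18 stromal genes were measured. The rest of these had no probe set. All columnar (7), macrophage (8) and lymphocyte (5) genes with a probe set also passed the brightness limit, as did 7 of 8 adipocyte genes. Of the 6 sebocyte genes on the array, 5 lay below it. These counts do not show which cells the biopsies held. The late luteal baseline sample 4, from the DMPA animal PPi2, stood apart: its mean over the mature squamous markers was −3.67, the lowest of all baseline samples. Late luteal sample 1, from the LNG animal BB967, followed at −3.12, with a sterol synthesis mean of −0.85 and a barrier lipid mean of −1.34. The main results of the DMPA arm and of the cycle are given with and without sample 4, and those of the LNG arm with and without each of these samples. RNA degradation raises the signal of the GAPDH control at its 3' end over that at its 5' end; this difference was 1.66 ± 0.31 (SD, n = 28) at baseline and 2.43 ± 0.70 (SD, n = 9) at 2D2. At 2D2, 8 of 9 animals had a higher value than at their own baseline, so it moved with the treatment.

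Both lipid programmes were lower after DMPA. For each sample, a list mean was taken over the log2 values of its genes, each minus its own baseline mean. The sterol synthesis mean (11 measured genes of 14) was −0.93 ± 0.53 (SD, n = 9) at 2D2 and −0.91 ± 0.64 (SD, n = 8) at 1D4, against 0.00 ± 0.48 (SD, n = 28) at baseline. The barrier lipid mean (14 measured genes of 16, from the ceramide and acylceramide lists) was −1.25 ± 0.60 at 2D2 and −1.05 ± 0.69 at 1D4, against 0.00 ± 0.60 at baseline. Set against the animal's own baseline at 2D2, the sterol mean was lower in 8 of 9 animals, from −1.65 to 0.06, and the barrier lipid mean in 8 of 9, from −2.18 to 0.00. The value of 0.00 is that of PPi2, whose barrier lipid change was −1.03 and sterol change −1.15 when late luteal sample 4 was left out.

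In the LNG arm both list means were also below baseline. The sterol mean was −0.79 ± 0.91 at the 5th time and −0.86 ± 0.57 at the 7th (SD, n = 6 each), and the barrier lipid mean was −0.98 ± 1.30 and −0.82 ± 0.86. The 5th-time sample of the animal BB4800 stood apart, with a barrier lipid mean of −2.92, a basal squamous mean of −1.34, a lymphocyte mean of −1.75 and a stromal mean of 3.50. Without it the 5th-time means were −0.62 ± 0.90 for sterol synthesis and −0.60 ± 1.00 for barrier lipid (SD, n = 5). In the untreated cycle both means were highest in the late follicular phase, at 0.28 ± 0.19 for sterol synthesis and 0.44 ± 0.20 for barrier lipid (SD, n = 5). They were −0.20 ± 0.65 and −0.31 ± 0.75 in the late luteal phase (SD, n = 9). The lowest late luteal values, −1.51 for sterol synthesis and −1.72 for barrier lipid, lay among the treated samples and were those of sample 4; without it the late luteal means were −0.04 ± 0.46 and −0.13 ± 0.57 (SD, n = 8).

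The mean of the 18 mature squamous markers moved with both lipid means. It was −4.14 ± 2.01 (SD, n = 9) at 2D2, −3.16 ± 2.20 (n = 8) at 1D4, −2.76 ± 2.91 (n = 6) at the 5th time and −2.57 ± 2.96 (n = 6) at the 7th, against 0.00 ± 1.21 (n = 28) at baseline. At 2D2, 16 of the 18 markers fell, with a median log2 change of −4.29. In whole biopsies, fewer mature squamous cells and less RNA of these genes per cell cannot be told apart.

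**Figure D1:**
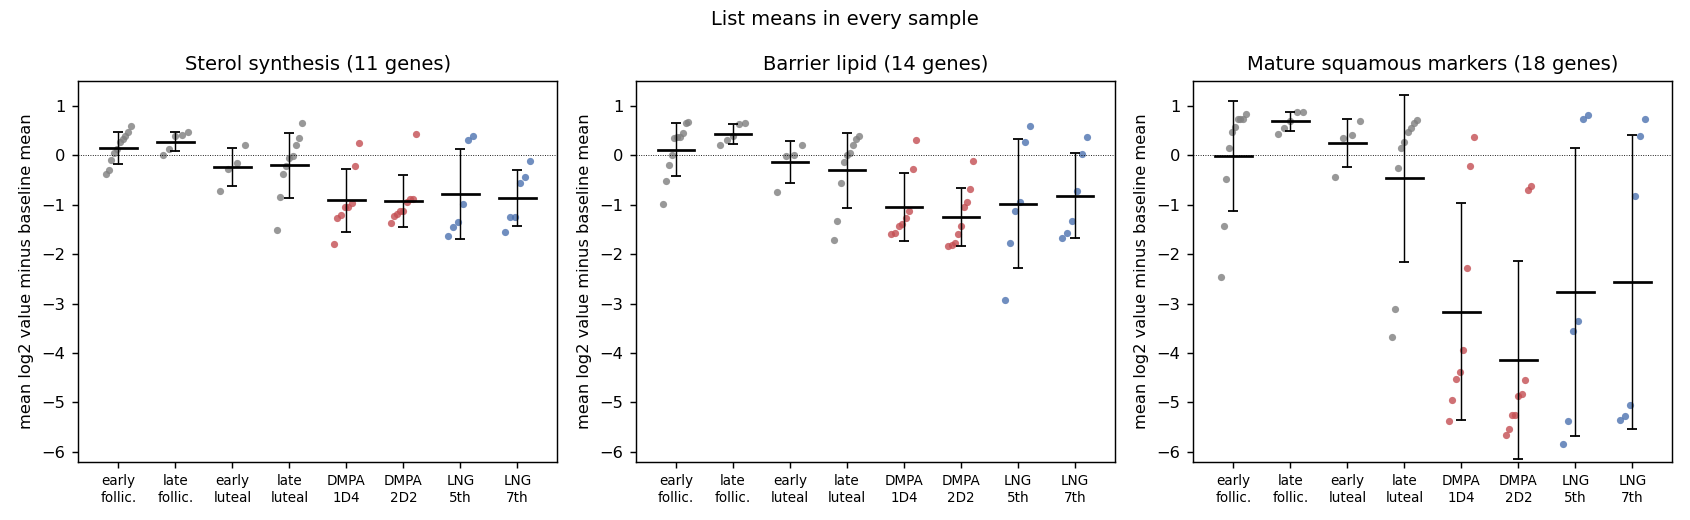
Each point is 1 sample, the horizontal bar is the group mean and the error bar is 1 SD. The vertical axis is the mean over the list of log2 values, each minus its baseline mean, for sterol synthesis genes, barrier lipid genes and mature squamous markers in the 4 baseline phases (grey), DMPA (red) and LNG (blue). The 2D2 samples lie mostly below 0 in all 3 panels, with a sterol synthesis mean of −0.93, a barrier lipid mean of −1.25 and a squamous marker mean of −4.14.

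At 2D2, 21 of the 33 tested lipid genes fell and none rose (limma, adjusted p under 0.05 over 31624 probe sets). Over all 11199 genes, read by the same rule, 14.1% fell and 31.3% passed in either direction. The median log2 change was −0.68 for the 33 genes, of which 31 lay below 0, and 0.05 for all genes. By role, 4 of 6 mevalonate and squalene genes, 4 of 5 sterol ring genes, 1 of 3 regulators, 4 of 5 fatty acid genes, 3 of 8 ceramide genes and 5 of 6 acylceramide and transport genes fell.

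The largest falls were in the lipoxygenases. ALOX12B, which starts the oxidation of acylceramide linoleate, ran from 5.99 to 12.47 with a median of 11.56 in the 17 baseline samples of the DMPA animals. Its 9 samples at 2D2 ran from 4.32 to 10.17 with a median of 4.78. Of these, 5 lay below the lowest baseline sample (6 of 9 without late luteal sample 4) and all 9 below the baseline median, though the groups overlapped. The fitted log2 change was −4.57 ± 0.80 (SE; limma, adjusted p = 0.000218). No fold is given, since 5 of the 9 treated samples lay under log2 5.53, the brightness limit set on mean values for testing, and no detection call was used. By animal, 8 of 9 were lower than their own baseline, the exception being PPi2 at 1.12 (−1.95 without late luteal sample 4).

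ALOXE3, which acts next on the product of ALOX12B, had a baseline median of 10.42 (5.00 to 11.10) and a 2D2 median of 5.23 (4.59 to 8.04). Its low baseline samples reached the treated range: 1 of 9 treated samples lay below them all, and 5 of 9 without late luteal sample 4. It fell by 3.61 ± 0.75 on the log2 scale (adjusted p = 0.000855), with 7 of 9 treated samples under the same limit, and its second probe set fell by 3.16 (adjusted p = 0.000340).

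ALOX12, an arachidonate lipoxygenase of platelets and epithelium, went from a baseline median of 10.56 (6.81 to 11.73) to 7.29 (5.89 to 11.68) at 2D2, a change of −2.44 ± 0.58 (adjusted p = 0.00267). The high value of 11.68 was from the animal BB770, at the lowest labelled dose. ALOX15B, which oxidizes arachidonate at another carbon, went from 11.53 (9.81 to 12.14) to 9.71 (5.95 to 12.10). Here 5 of 9 treated samples were below every baseline sample of the arm (8 of 9 without late luteal sample 4), and the change was −2.20 ± 0.50 (adjusted p = 0.00184).

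Lipid transport genes moved less. ABCA12, the lamellar body transporter, had a baseline median of 8.50 (6.23 to 9.15) and a 2D2 median of 7.38 (5.91 to 8.44), with all 9 treated samples below the baseline median and 1 below the lowest (7 without late luteal sample 4). It fell by 1.18 ± 0.30 (adjusted p = 0.00443), and its second probe set fell by 1.13. FABP5, an epidermal carrier of fatty acids, did not pass, at −0.29 ± 0.18 (adjusted p = 0.220), and its second probe set had the opposite sign at 0.45 (adjusted p = 0.155).

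Within ceramide synthesis, CERS3, CERS4 and DEGS2 fell and the other 5 genes did not pass. CERS3, the synthase for ceramides with ultra-long acyl chains, had a baseline median of 10.80 (8.22 to 11.27) and a 2D2 median of 9.18 (7.56 to 11.03). Only 1 treated sample was below the lowest baseline sample, late luteal sample 4, but 8 of 9 were below all others. The change was −1.49 ± 0.39 (adjusted p = 0.00511). DEGS2, which makes phytoceramides, went from 10.19 (8.28 to 10.98) to 9.30 (8.60 to 10.27). No treated sample of DEGS2 lay below late luteal sample 4 and 5 of 9 lay below all other baseline samples. Its fall of 0.61 ± 0.21 (adjusted p = 0.0270) passed in 11 of the 15 fits that leave out 1 animal.

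CERS4, another ceramide synthase, fell by 0.36 ± 0.09 (adjusted p = 0.00453), with all 9 treated samples below the baseline median. The subunits of serine palmitoyltransferase, the first step of all sphingolipid synthesis, did not pass: SPTLC1 was at 0.08, SPTLC2 at −0.24 and SPTLC3 at −0.27. DEGS1, the general dihydroceramide desaturase, was at 0.12 and UGCG, which makes glucosylceramide, at −0.41, neither past the threshold.

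Among the fatty acid genes the elongases fell most. ELOVL6, which extends palmitate, had a baseline median of 9.82 (6.57 to 10.62) and a 2D2 median of 7.57 (5.83 to 10.46). Of the treated samples, 1 was below late luteal sample 4 and 8 of 9 were below all other baseline samples, and the change was −1.83 ± 0.42, a 3.56-fold fall (adjusted p = 0.00184). Its other 3 probe sets fell too: the smallest of these changes was −1.33 and the largest −2.09.

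ELOVL7, an elongase of long saturated chains, fell by 1.01 ± 0.26 (adjusted p = 0.00482), with all 9 treated samples below the baseline median. ELOVL1, which makes the very long chains used in ceramides, went from 10.07 (9.36 to 11.08) to 9.39 (8.25 to 10.09) and was lower in 9 of 9 animals. Its change was −0.68 ± 0.16 (adjusted p = 0.00235). FASN, the fatty acid synthase, went from 8.15 (7.60 to 8.81) to 7.43 (7.00 to 8.80), with 5 of 9 treated samples below every baseline sample, and fell by 0.60 ± 0.15 (adjusted p = 0.00466). ACACA, the carboxylase that supplies malonyl-CoA to it, was at −0.09 and did not pass.

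All 11 sterol synthesis genes measured lay below 0 at 2D2, and 8 of them passed. SQLE, the squalene epoxidase and a control point of the route, had a baseline median of 10.59 (7.83 to 11.11) and a 2D2 median of 8.15 (7.66 to 10.27). All 9 treated samples lay below the baseline median, although 1 alone was below the lowest baseline sample, which was late luteal sample 4. Without that sample 8 of 9 were below every baseline sample. SQLE fell by 1.85 ± 0.37 on the log2 scale, or 3.60-fold (adjusted p = 0.000656), and its second probe set by 1.95.

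DHCR7, the last enzyme of cholesterol synthesis, went from 8.04 (5.80 to 8.87) to 6.25 (5.20 to 8.94). The highest 2D2 sample, again from BB770, was above every baseline sample of the arm, while 3 of 9 were below them all (7 of 9 without late luteal sample 4). The change was −1.52 ± 0.31, a 2.87-fold fall (adjusted p = 0.000757).

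Other ring enzymes fell by less: NSDHL, a sterol dehydrogenase, by 1.15 ± 0.22 (adjusted p = 0.000470), CYP51A1, the lanosterol demethylase, by 0.86 ± 0.24 (adjusted p = 0.00729) and EBP, a sterol isomerase, by 0.80 ± 0.19 (adjusted p = 0.00291). Upstream, IDI1, the isopentenyl isomerase, fell by 1.01 ± 0.27 and MVD, the mevalonate pyrophosphate decarboxylase, by 0.99 ± 0.25. MVK, the mevalonate kinase, went from 8.71 (7.16 to 9.39) to 7.85 (7.12 to 9.01) and was lower in 9 of 9 animals. Its fall of 0.70 ± 0.22 (adjusted p = 0.0164) did not pass without the animal BB981 (adjusted p = 0.0614).

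The remaining sterol genes missed the threshold narrowly: FDPS, the farnesyl pyrophosphate synthase, at −0.29 (adjusted p = 0.0551), FDFT1, the squalene synthase, at −0.34 (adjusted p = 0.0540) and HSD17B7, a sterol ketoreductase, at −0.38 (adjusted p = 0.0676). The second probe sets of FDFT1 (−0.43, adjusted p = 0.0195) and HSD17B7 (−0.51, adjusted p = 0.0212) did pass.

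By their brightest probe sets, the transcripts of SREBF1 and SREBF2 moved little. SREBF2 had a baseline median of 10.16 (9.62 to 10.56) and a 2D2 median of 10.14 (9.60 to 10.59), and the ranges nearly coincided. Its change was −0.02 (adjusted p = 0.914). The dimmer probe sets of SREBF2 lay lower, at −0.34 (adjusted p = 0.0300), −0.28 (adjusted p = 0.0901) and −0.48 (adjusted p = 0.130), and the first of these passed. SREBF1, which drives fatty acid genes, went from 9.09 (8.48 to 9.56) to 8.94 (8.67 to 9.65), a change of −0.02 (adjusted p = 0.893). INSIG1 went from 8.58 (7.76 to 9.29) to 7.95 (7.09 to 9.11) and was lower in 6 of 9 animals. Its fall of 0.46 ± 0.17 (adjusted p = 0.0338) passed in 10 of the 15 fits that leave out 1 animal, and its second probe set was at −0.23 (adjusted p = 0.408).

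**Figure D2:**
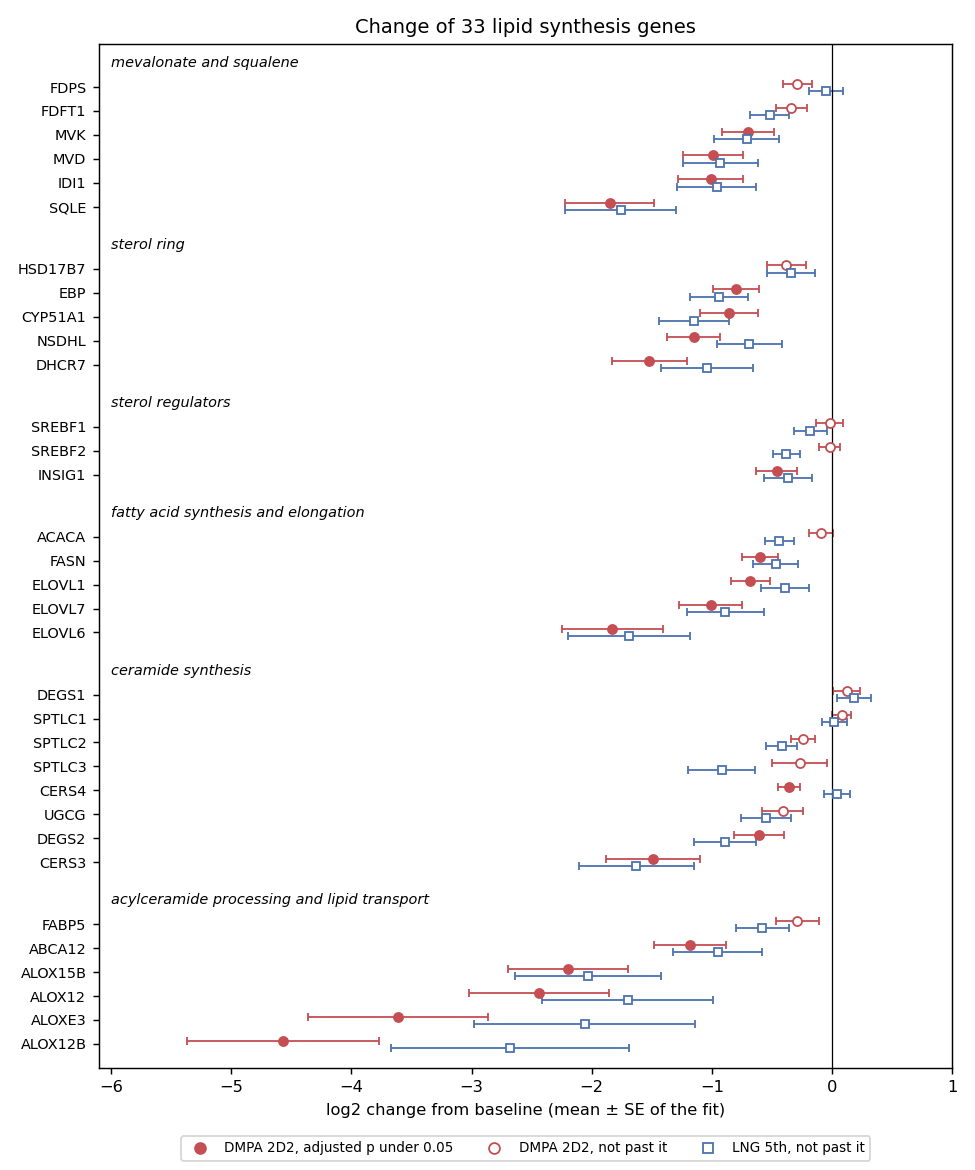
Points are fitted log2 changes from baseline of the 33 tested genes, grouped by role, with 1 SE of the fit; red circles are DMPA 2D2 (filled where the adjusted p is under 0.05) and blue squares are LNG 5th. ALOX12B has the lowest value in both (−4.57 and −2.68), DEGS1 and SPTLC1 lie near 0, and no LNG point passed.

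The count was 18 to 24 when 1 animal at a time was left out, and 26 without late luteal sample 4. The share of all probe sets called is not given for these fits, so a change particular to the lipid genes is not read from them. No call was left in 2 fits with a covariate. With the GAPDH 3' minus 5' difference as a covariate, limma called 0 of the 33 genes (2 at an unadjusted p under 0.05) and 0 of 31624 probe sets, and the median change of the 33 genes was −0.10 in place of −0.68. With the mature squamous marker mean as a covariate, chosen after seeing the data, it also called 0 of the 33 genes (2 at an unadjusted p under 0.05) and 0 of all probe sets, and the median change of the 33 genes was 0.12. These measures move with the drug, and their part in the result was not tested further.

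At the earlier DMPA time, 1D4, 23 of the 33 genes fell and none rose, against 14.1% of all genes lower and 25.8% called in either direction. The median was −0.60, against 0.01 for all genes. All 11 sterol synthesis genes passed here, among them FDPS (−0.34 ± 0.12, adjusted p = 0.0418), FDFT1 (−0.47 ± 0.14, adjusted p = 0.0165) and HSD17B7 (−0.58 ± 0.17, adjusted p = 0.0156). Of the barrier lipid genes, CERS3, CERS4, DEGS2, ABCA12 and the 4 lipoxygenases passed. The 1D4 and 2D2 comparisons share the baseline samples.

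SQLE at 1D4 had a median of 8.42 (6.16 to 10.64), with 2 of 8 samples below the lowest baseline sample of the arm (6 of 8 without late luteal sample 4), and fell by 1.93 ± 0.39 (adjusted p = 0.00335). ALOX12B had a median of 5.86 (5.03 to 11.03), with 4 of 8 below the lowest baseline sample (6 of 8 without late luteal sample 4), and fell by 4.01 ± 0.84 (adjusted p = 0.00383). INSIG1 had a median of 7.98 (7.41 to 8.67) and did not pass, at −0.40 ± 0.17 (adjusted p = 0.0893).

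The other lipoxygenases at 1D4 had medians of 5.22 (4.52 to 9.08) for ALOXE3, 6.66 (6.18 to 11.58) for ALOX12 and 10.20 (8.41 to 11.87) for ALOX15B. The highest samples of ALOX12 and ALOX15B lay above the baseline median, whereas all 8 samples of ALOXE3 lay below it. The changes were −3.37 ± 0.79, −2.62 ± 0.61 and −1.52 ± 0.53. DHCR7 had a median of 6.19 (5.34 to 8.54) and fell by 1.46 ± 0.33 (adjusted p = 0.00486). ELOVL6 had a median of 7.84 (6.66 to 10.09) and fell by 1.55 ± 0.44 (adjusted p = 0.0133). CERS3 had a median of 9.25 (7.98 to 11.03) and fell by 1.32 ± 0.41 (adjusted p = 0.0206), the smallest fall of these 3.

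Among genes of smaller change, MVK had a median of 7.53 (6.27 to 8.78) and fell by 0.99 ± 0.23 (adjusted p = 0.00531). FASN, at 7.59 (7.15 to 8.22), had 4 of 8 samples below the lowest baseline sample and fell by 0.49 ± 0.16. DEGS2, at 9.51 (8.57 to 10.63), fell by 0.60 ± 0.22, and ELOVL1, at 9.47 (8.82 to 9.99), fell by 0.59 ± 0.17. ABCA12, at 7.57 (7.02 to 8.36), lay below the baseline median in 8 of 8 samples and fell by 0.88 ± 0.32 (adjusted p = 0.0404). The regulators SREBF1, at 8.98 (8.69 to 9.15), and SREBF2, at 9.91 (9.72 to 10.49), stayed within the baseline range and did not pass.

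The 1D4 count depended on single animals. It was 10 when PHQ1 was left out, 11 for BB0499, 12 for BB981 and 13 for BB0540, which were all given the 1.5 or 2.5 dose. The share of all probe sets called is not given for these fits or for the 1D4 covariate fits below. Whether the loss of calls was particular to the lipid genes or general was therefore not compared here. The mean of the 13 stromal markers was 1.54 ± 1.50 (SD, n = 8) at 1D4 against 0.00 ± 1.26 (n = 28) at baseline, and with it as a covariate limma called 0 of the 33 genes (20 at an unadjusted p under 0.05), with a median of −0.37. With the GAPDH covariate the 1D4 count was 9 and the median −0.40. Between 1D4 and 2D2, limma called 0 of the 33 genes (0 at an unadjusted p under 0.05) and 0% of all genes. The median was −0.05, and 0.39 with the GAPDH covariate, where 13 genes had an unadjusted p under 0.05 and 0 passed.

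After LNG, no gene of the 33 passed at the 5th time (limma), although 25 had an unadjusted p under 0.05. In the background, 0% of all 11199 genes passed and 2723 had an unadjusted p under 0.05. The lowest adjusted p over all probe sets was 0.0544, and SQLE, CYP51A1 and EBP had that value. The median change of the 33 genes was −0.71, with 30 below 0, against −0.02 for all genes. Without the 5th-time sample of BB4800 it was −0.53, and 13 genes had an unadjusted p under 0.05.

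Stromal and RNA quality measures were also higher in most LNG samples. The stromal marker mean exceeded that of the same animal before treatment in 5 of 6 cases at the 5th time, with a mean difference of 1.96 ± 1.15 (SD, n = 6), and in 6 of 6 at the 7th, with 1.42 ± 1.45. In limma 0 of the 13 markers passed at either time, while 12 and 7 had an unadjusted p under 0.05. With this mean as a covariate the median of the 33 genes was −0.34 at the 5th time (7 at an unadjusted p under 0.05) and −0.45 at the 7th (14). The GAPDH difference was 2.05 ± 0.61 and 2.11 ± 0.38 (SD, n = 6 each), higher than before treatment in 5 and 6 of the 6 animals, and with it as a covariate the medians were −0.35 and −0.34. The squamous covariate gave −0.08 and −0.16. The part of these measures in the LNG values was not tested further.

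SQLE ran from 9.05 to 11.04 with a median of 10.83 in the 11 baseline samples of the LNG animals, and from 6.79 to 10.92 with a median of 8.51 in the 6 samples at the 5th time. Of those 6, 4 lay below every baseline sample and 5 below the baseline median, and the change was −1.76 ± 0.46. CERS3 went from a median of 11.01 (9.64 to 11.25) to 9.80 (4.51 to 11.14), a change of −1.63 ± 0.48 (adjusted p = 0.0635). The value of 4.51 came from the animal BB4800, whose own baseline was 6.15 higher on the log2 scale. ALOX12B went from 11.85 (6.57 to 12.65) to 7.30 (5.05 to 12.67), a change of −2.68 ± 0.99 (adjusted p = 0.108). The groups overlapped widely, with 2 of 6 samples below the lowest baseline sample and 4 of 6 without late luteal sample 1.

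Regulators and first steps at the 5th time were at −0.38 ± 0.11 for SREBF2 (adjusted p = 0.0639), −0.18 for SREBF1 (adjusted p = 0.471), −0.44 ± 0.12 for ACACA (adjusted p = 0.0554) and −0.05 for FDPS (adjusted p = 0.873). SREBF2 ran from 9.20 to 10.32 and lay under its own baseline in each of the 6 animals.

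The other genes with large changes were split between animals at the 5th time. ALOXE3 went from a baseline median of 10.23 (5.03 to 11.57) to 5.44 (5.17 to 11.54), and ALOX12 from 10.66 (5.98 to 11.62) to 7.14 (6.11 to 11.68); in neither gene did a treated sample lie below the lowest baseline sample, late luteal sample 1, though 4 of 6 did in each without it. ALOX15B went from 11.57 (10.40 to 11.81) to 10.62 (4.71 to 11.71), a change of −2.03 ± 0.61 (adjusted p = 0.0650). DHCR7 went from 7.95 (6.39 to 8.77) to 6.36 (5.35 to 8.49) and ELOVL6 from 9.87 (8.79 to 10.92) to 7.83 (6.29 to 10.28), with 3 and 4 of 6 samples below every baseline sample of the arm (4 for DHCR7 without late luteal sample 1). Each gene kept at least 1 treated sample above its baseline median.

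Smaller differences at the 5th time were seen in DEGS2, from 10.48 (9.20 to 11.08) to 9.69 (7.53 to 10.93), in FASN, from 8.37 (7.56 to 8.92) to 7.65 (7.01 to 8.71), and in MVK, from 8.74 (7.70 to 9.89) to 7.94 (6.73 to 9.32). ABCA12 went from 8.31 (7.61 to 9.76) to 8.10 (3.98 to 9.08), and ELOVL1 from 9.80 (9.28 to 10.79) to 9.42 (8.98 to 10.52). INSIG1 went from 8.54 (8.16 to 9.12) to 8.35 (7.11 to 8.96) and SREBF1 from 9.24 (8.80 to 9.72) to 9.01 (8.73 to 9.35). The groups overlapped for each of these genes.

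The number of lipid genes called at the 5th time depended on single animals and samples, and so did the share of all probe sets called. Without late luteal sample 1 it was 17 of 33, against 7.73% of all probe sets. It was 16 without the animal BB4870 (10.1% of all), 9 without BB269 (2.91%), 7 without PPi2 (2.27%) and 11 without late luteal sample 4 (3.31%). PPi2 and its late luteal sample 4 belong to the DMPA arm. They enter the LNG comparisons only through the estimate of the spread, which all groups share. Leaving out the arrays marked A- gave 15 (9.29%). A fit in which each of the 4 phases had its own term gave 12 (5.72%).

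At the 7th time limma called 0 of the 33 genes (26 at an unadjusted p under 0.05). It called 0% of all 11199 genes (2844 at an unadjusted p under 0.05) and 0.00632% of probe sets. The median of the 33 was −0.68, with 32 below 0. ELOVL6 was at −2.12 ± 0.51 (adjusted p = 0.0591) and had a median of 7.72 (6.21 to 9.52), with 3 of 6 samples below every baseline sample of the arm and 6 of 6 below the baseline median. SQLE was at −1.77 ± 0.46 (adjusted p = 0.0591) and SREBF1 at −0.49 ± 0.14 (adjusted p = 0.0605). The count was 20 without late luteal sample 1 (10.2% of all probe sets), 12 without BB269 (3.46%), 12 without PPi2 (2.56%), 12 without late luteal sample 4 (3.62%), 7 without the 5th-time sample of BB4800 (2.16%) and 20 with array weights (11.3%).

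Levels at the 7th time were a median of 8.68 (7.27 to 10.56) for SQLE, 6.62 (5.27 to 7.97) for DHCR7, 9.82 (8.59 to 10.84) for CERS3 and 7.53 (7.24 to 8.20) for FASN. All 6 samples lay below the baseline median of the arm for SQLE, CERS3 and FASN, and 5 of 6 for DHCR7. The lipoxygenases had medians of 7.36 (5.75 to 12.10) for ALOX12B, 5.69 (5.08 to 10.88) for ALOXE3, 6.81 (5.80 to 10.61) for ALOX12 and 10.16 (8.13 to 11.59) for ALOX15B. Their ranges at the 7th time overlapped the baseline ranges of the arm, with 4 of 6 samples of each below the lowest baseline sample when late luteal sample 1 was left out.

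DEGS2 had a median of 10.04 (8.82 to 10.38), MVK of 7.78 (7.10 to 9.20), ELOVL1 of 9.35 (8.58 to 10.38) and ABCA12 of 7.83 (6.42 to 9.10) at the 7th time. The regulators INSIG1, at 8.05 (7.74 to 8.29), SREBF1, at 8.72 (8.34 to 9.11), and SREBF2, at 9.89 (9.59 to 10.09), each had 6 of 6 samples below the baseline median of the arm, and none of the 3 passed. Between the 5th and 7th times, limma called 0 of the 33 genes and 0% of all 11199 genes (1 and 315 at an unadjusted p under 0.05).

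DMPA and LNG gave changes of like sign. The 2 arms share no animals, and 32 of the 33 genes (97.0%) had the same sign at 2D2 and at the 5th time, against 73.8% of all genes. Across the 33 genes the changes correlated with r = 0.92 (Spearman 0.88), and across all genes with r = 0.73 (Spearman 0.64); genes are not independent replicates, and both arms share the microarray platform.

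For the difference DMPA change minus LNG change, limma called 0 of the 33 genes and 0% of all 11199 genes (3 and 726 at an unadjusted p under 0.05). The median of the 33 was 0.01. The 3 were ACACA (0.36 ± 0.13), SREBF2 (0.30 ± 0.12) and CERS4 (−0.30 ± 0.12), each with an adjusted p of 0.769. For SQLE the difference was −0.13, with a 95% interval from −1.11 to 0.86. For ALOX12B it was −1.66, with an interval from −3.79 to 0.47, so that neither gene's interval excludes 0.

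**Figure D3:**
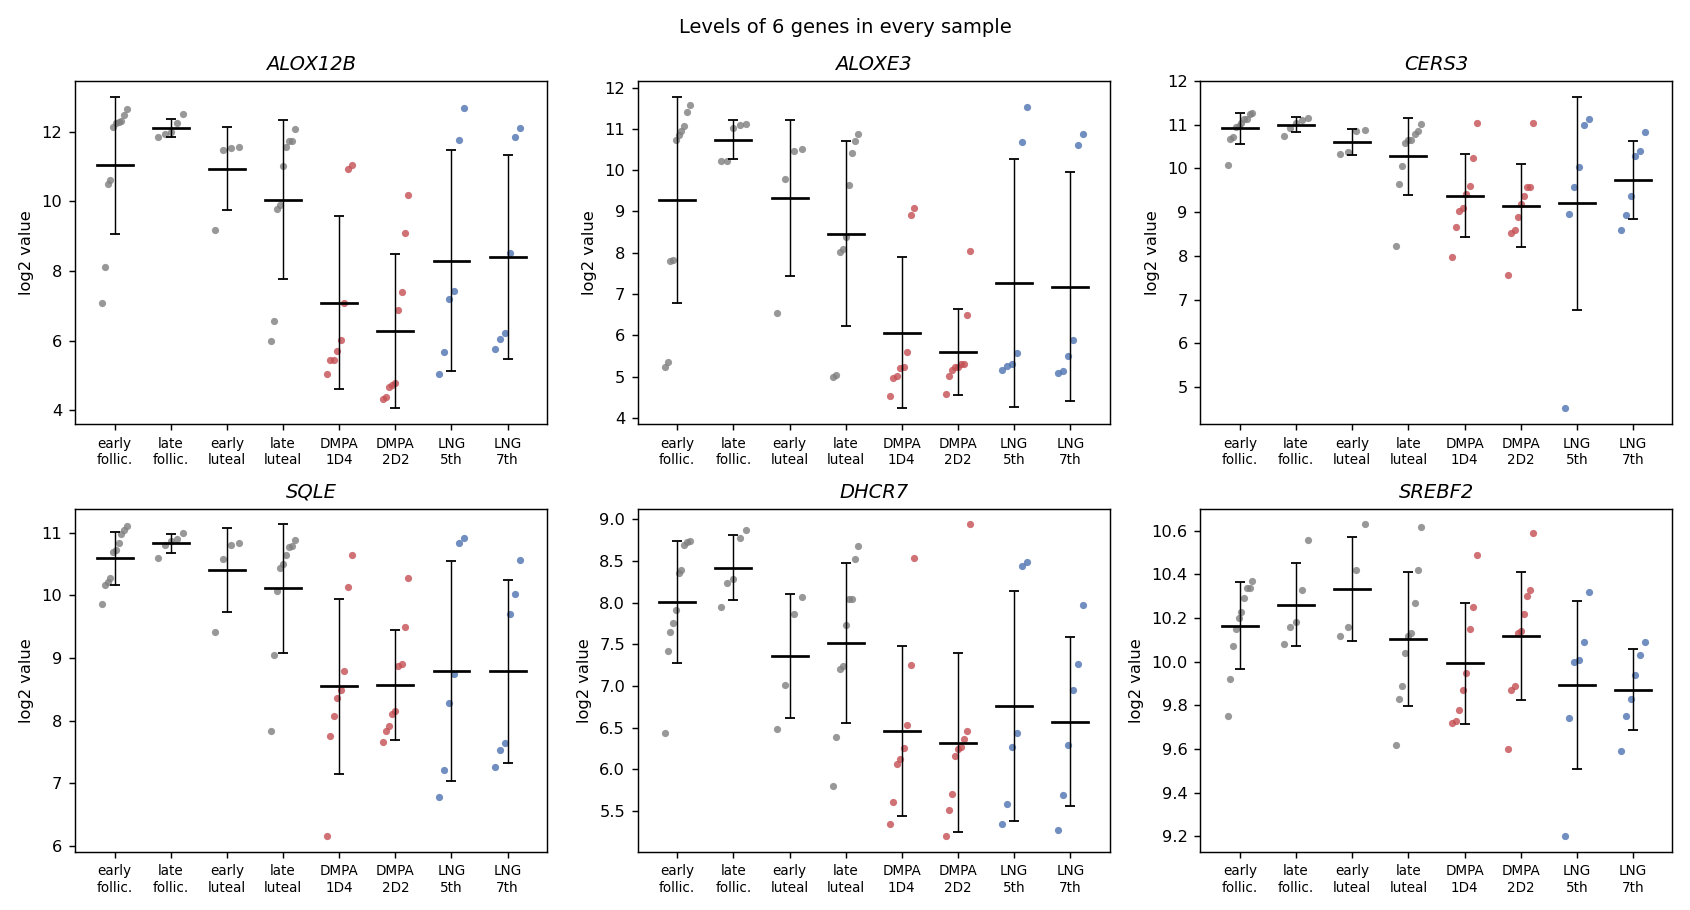
Each point is the log2 value of 1 sample, the horizontal bar is the group mean and the error bar is 1 SD, for 6 genes in the 4 baseline phases (grey), DMPA (red) and LNG (blue). ALOX12B and ALOXE3 lie low in most treated samples and in some baseline samples, while the 2D2 median of SREBF2 is 10.14 against 10.16 at baseline of that arm.

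Across the untreated cycle most lipid genes, read by their brightest probe sets, were lower in the luteal than in the follicular phases without passing. A dimmer probe set of MVK (−0.76, adjusted p = 0.0431) and a dimmer one of SPTLC3 (−0.76, adjusted p = 0.0333) did pass. No other probe set of the 33 genes passed. For luteal minus follicular, limma called 0 of the 33 genes (9 at an unadjusted p under 0.05), against 3.31% of all genes (2.33% higher, 0.982% lower) and 3.04% of probe sets (2.10% higher, 0.939% lower). Of all 11199 genes, 3061 had an unadjusted p under 0.05, a like share to that of the 33. The median was −0.38, with 30 of 33 below 0, against −0.02 for all genes. Among the 33 the genes with the smallest p values were FASN, DEGS2, MVK and ELOVL1. The GAPDH difference was 1.57 ± 0.20 (SD, n = 10), 1.50 ± 0.24 (n = 5), 1.74 ± 0.13 (n = 4) and 1.81 ± 0.44 (n = 9) from the early follicular to the late luteal phase. With it as a covariate the median of the 33 genes was −0.01 and 0 had an unadjusted p under 0.05, and with the stromal mean it was −0.16. Without late luteal sample 4 it was −0.34, and 10 genes had an unadjusted p under 0.05.

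FASN had medians of 8.36 (7.60 to 8.92) in the early follicular, 8.55 (8.15 to 8.85) in the late follicular, 7.87 (7.56 to 8.02) in the early luteal and 8.04 (7.65 to 8.83) in the late luteal phase. The early luteal samples lay below every late follicular sample, and the difference was −0.53 ± 0.16 (adjusted p = 0.0760). DEGS2 had medians of 10.30 (9.65 to 11.08), 10.81 (10.48 to 10.98), 9.74 (9.20 to 10.30) and 9.98 (8.28 to 10.53) in the same order. Its early luteal and late follicular samples did not overlap either, and the difference was −0.57 ± 0.17 (adjusted p = 0.0762).

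MVK had medians of 8.80 (7.83 to 9.83), 9.16 (8.71 to 9.89), 8.34 (8.02 to 8.69) and 8.34 (7.16 to 9.41), with a difference of −0.68 ± 0.23 (adjusted p = 0.0983). ELOVL1 had medians of 10.12 (9.62 to 11.08), 10.26 (9.70 to 10.79), 9.82 (9.29 to 10.19) and 9.80 (9.28 to 10.49), with a difference of −0.47 ± 0.16 (adjusted p = 0.103). In both genes the early follicular and luteal ranges overlapped widely.

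The lipoxygenases had wide ranges within the phases. ALOX12B had medians of 12.18 (7.09 to 12.65), 11.99 (11.85 to 12.50), 11.51 (9.17 to 11.56) and 11.02 (5.99 to 12.07), a difference of −0.91 ± 0.82 (adjusted p = 0.497). ALOXE3 had medians of 10.78 (5.23 to 11.57), 11.03 (10.23 to 11.11), 10.12 (6.53 to 10.50) and 8.38 (5.00 to 10.87). ALOX12 had medians of 10.16 (7.54 to 11.73), 11.58 (10.66 to 11.62), 8.86 (7.40 to 11.13) and 10.56 (5.98 to 11.38). The late follicular samples were the tightest group for all 3 genes, and the lowest sample of each gene was late luteal.

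ALOX15B had medians of 11.42 (11.11 to 12.14), 11.62 (11.53 to 11.90), 11.66 (10.95 to 11.71) and 11.24 (9.81 to 11.82). SQLE had medians of 10.70 (9.87 to 11.11), 10.86 (from 10.59 up), 10.69 (9.42 to 10.83) and 10.50 (7.83 to 10.89). DHCR7 had medians of 8.14 (6.44 to 8.74), 8.28 (7.95 to 8.87), 7.44 (6.48 to 8.07) and 7.73 (5.80 to 8.68). The 4 phases overlapped for each of these 3 genes, and the luteal minus follicular differences did not pass.

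ELOVL6 had medians of 10.24 (8.52 to 10.92), 10.06 (9.83 to 10.33), 9.50 (8.37 to 10.01) and 9.45 (6.57 to 10.51). CERS3 ran from 10.08 to 11.27 in the early follicular phase and had medians of 11.05 (10.74 to 11.16), 10.62 (10.33 to 10.88) and 10.65 (8.22 to 11.01) in the others. ABCA12 had medians of 8.45 (7.54 to 9.76), 8.90 (8.04 to 9.20), 8.08 (7.93 to 8.43) and 8.46 (6.23 to 8.94). The phase medians of the regulators lay between 8.37 and 8.69 for INSIG1, 9.09 and 9.39 for SREBF1, and 10.12 and 10.29 for SREBF2.

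From the early follicular to the late luteal phase all 33 genes lay below 0, with a median of −0.47. Of all 11199 genes, 2688 had an unadjusted p under 0.05. Limma called 0 of the 33 (14 at an unadjusted p under 0.05), against 0.152% of all genes (0.0982% higher, 0.0536% lower) and 0.152% of probe sets (0.0949% higher, 0.0569% lower). Among the 33 the smallest p values belonged to SPTLC3 (−0.89 ± 0.22, adjusted p = 0.0774), DEGS2 (−0.76 ± 0.19, adjusted p = 0.0775) and ABCA12 (−0.83 ± 0.22, adjusted p = 0.0858). Without late luteal sample 4 the median was −0.29, all 33 were still below 0, and 8 had an unadjusted p under 0.05; without sample 1 it was −0.34, with 7. In the 6 animals with both phases the sterol mean differed by −0.57 ± 0.88 (SD), and by −0.33 ± 0.74 in the 5 other than PPi2. In the same 6 animals, CERS3, DEGS2, ABCA12, ELOVL1, ELOVL7 and FABP5 were lower in the late luteal sample in all 6. The smallest of these differences were near 0 for ABCA12 (−0.00), ELOVL7 (−0.01), CERS3 and FABP5 (−0.03 each). They were −0.18 for ELOVL1 and −0.26 for DEGS2. The same count over all genes is not given here. Stromal markers moved as well: their mean was higher in the late luteal sample in 6 of 6 animals, by 1.40 ± 1.09 (SD), and with it as a covariate the median was −0.07. The GAPDH difference was higher in 5 of 6 animals, and as a covariate gave a median of −0.15. Their part in these differences was not tested further.

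The DMPA animals at the lowest labelled dose changed least from their own baseline. The 3 animals at 0.5 had sterol mean changes at 2D2 of −0.27 (PPi2), −0.57 (BB108) and 0.06 (BB770). Those at 1.5 were at −0.87, −1.01 and −1.51, and the 2.5 animals at −1.08, −1.21 and −1.65. The 0.5 animals did not overlap the others, but PPi2 was at −1.15 when late luteal sample 4 was left out, within the range of the others. For barrier lipid the 0.5 animals were at 0.00, −0.60 and −1.01, the 1.5 animals at −1.13, −1.55 and −1.71, and the 2.5 animals at −1.25, −1.81 and −2.18. BB108 started low, with baseline sterol means of −0.39 and −0.38 and barrier lipid means of −0.56 and −0.99. Its means at 2D2, −0.95 and −1.78, lay within those of the 1.5 and 2.5 animals. These ran from −1.38 to −0.88 for sterol synthesis and from −1.84 to −0.94 for barrier lipid.

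Gene by gene the dose slope did not pass. For the log2 change at 2D2 per unit of labelled dose, limma called 0 of the 33 genes and 0% of all 11199 genes (2 and 492 at an unadjusted p under 0.05). The median slope was −0.24, with 28 of 33 below 0, against −0.00 for all genes. DHCR7 had a slope of −0.74 ± 0.34 (adjusted p = 0.934) and ALOX12B −1.55 ± 0.90 (95% interval −3.37 to 0.28). All 18 mature squamous markers had a slope below 0 too, with a median of −1.46. With the GAPDH covariate the median slope of the lipid genes was 0.11, and with the squamous covariate 0.10.

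In the LNG arm the animals labelled Low had the larger falls from their own baseline, except in the sterol mean at the 7th time. At the 5th time the change in the sterol mean was −1.12, −1.48 and −1.70 in the Low animals and −0.85, 0.11 and −0.00 in the High animals. The change in the barrier lipid mean was −1.30, −1.43 and −3.01 in Low and −0.50, 0.01 and 0.07 in High. At the 7th time the sterol changes overlapped, with Low at −0.91, −0.69 and −1.63 and High at −1.11, −0.31 and −0.84. The barrier lipid changes did not overlap there, with Low at −1.19, −1.02 and −1.66 and High at −0.90, 0.11 and −0.51. The baseline of the High animal BB967 holds late luteal sample 1 (sterol −0.85, barrier lipid −1.34) beside an early follicular sample (0.59 and 0.45). Against the early follicular sample alone its falls would be larger and reach those of the Low animals. The full separation of Low and High thus rests on late luteal sample 1. The High animals BB269 and BB4870 do not draw on that sample, and at the 5th time both lay above every Low animal in both means.

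High minus Low was fitted on the change averaged over both LNG times, not on the 5th time alone. In this fit limma called 0 of the 33 genes (11 at an unadjusted p under 0.05) and 0% of all genes. None of the 33 was below 0, and the median was 0.74, against −0.01 for all genes. ALOX12B was at 4.17 ± 1.51, CERS3 at 2.16 ± 0.72 and ELOVL6 at 2.18 ± 0.78, each with an adjusted p of 0.540, and SQLE was at 1.90 ± 0.70 (adjusted p = 0.541). The 18 squamous markers were all above 0 with a median of 3.71. The median of the lipid genes was 0.26 with the GAPDH covariate, −0.03 with the squamous covariate and 0.48 without the 5th-time sample of BB4800. What the labels High and Low refer to is not stated beyond the word dose, and with 3 animals each the labels and the animals cannot be told apart.

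**Figure D4:**
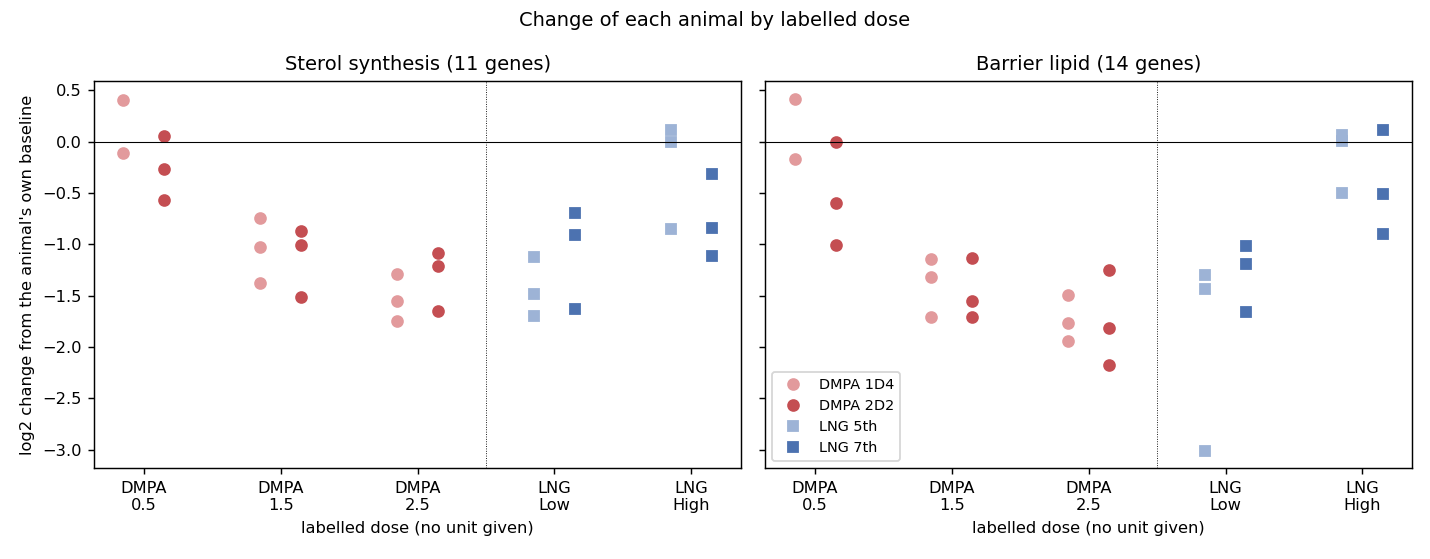
Each point is the change of 1 animal from its own baseline in the sterol synthesis mean (left) and the barrier lipid mean (right), by labelled dose, for DMPA (circles) and LNG (squares). The 3 DMPA animals at 0.5 lie from −0.57 to 0.06 in the sterol mean at 2D2, above the others of that arm. Of these, PPi2 rests on late luteal sample 4, and BB108 had low baseline samples. At the 5th time the Low LNG animals lie below the High ones, of which BB967 rests on late luteal sample 1.

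Related genes outside the 41 moved in part with them at 2D2, where 14.1% of all genes fell and 17.2% rose. Of 23 further genes of sterol synthesis and uptake, 12 were measured, 4 fell and 1 rose, with a median of 0.01. STARD4, a carrier of cholesterol between membranes, fell by 1.56 ± 0.31 (adjusted p = 0.000655), TM7SF2, a sterol reductase, by 1.28 ± 0.30, PMVK, the phosphomevalonate kinase, by 0.69 ± 0.18 and CYB5R3, an electron donor, by 0.28 ± 0.10. MYLIP, the ligase that degrades the LDL receptor, rose by 0.73 ± 0.19 (adjusted p = 0.00487). SCAP, NPC1 and INSIG2 were at 0.09, 0.06 and 0.03 and did not pass.

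Of 6 sterol efflux genes 4 were measured. LPCAT3, a phospholipid acyltransferase, rose by 0.40 ± 0.11 (adjusted p = 0.00786), and APOE, a lipid carrier abundant in macrophages, was at 1.04 ± 0.43 (adjusted p = 0.0662). In the luteal phases APOE (1.78 ± 0.35, adjusted p = 0.0326) and NR1H3, the oxysterol receptor LXR alpha (1.23 ± 0.25, adjusted p = 0.0332), were higher than in the follicular phases. The macrophage markers C1QA, C1QB and CSF1R passed in the same direction, 3 of 8 measured, and their part in the APOE and NR1H3 values was not tested.

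Of 22 further fatty acid genes 14 were measured and 5 fell at 2D2. ME1, the malic enzyme that supplies NADPH, fell by 3.58 ± 0.59 on the log2 scale (adjusted p = 0.000157). ACSL1, an acyl-CoA synthetase, fell by 0.95 ± 0.25, PPARD, a fatty acid receptor of keratinocytes, by 0.74 ± 0.18, ACLY, which makes cytosolic acetyl-CoA, by 0.51 ± 0.15 and SLC27A4, a fatty acid transporter, by 0.40 ± 0.12. FADS2, a desaturase, was at −0.24 ± 0.46 and PPARG at 0.25 ± 0.30, neither past the threshold.

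Of 38 further barrier lipid genes 18 were measured, 10 fell and 2 rose. PLA2G4E, a phospholipase, fell by 3.21 ± 0.66, with 8 of 9 treated samples under log2 5.53. DGAT2, a triglyceride synthase, fell by 2.77 ± 0.48, ACER1, an epidermal ceramidase, by 2.22 ± 0.50 (7 of 9 under the same limit), CYP4F22, the hydroxylase of ultra-long fatty acids, by 1.58 ± 0.44 and ABHD5, a lipase activator mutated in a lipid storage ichthyosis, by 1.41 ± 0.29. The lysosomal ceramidase ASAH1 rose by 0.64 ± 0.21 (adjusted p = 0.0189) and was also higher in the luteal phases, by 0.84 ± 0.20 (adjusted p = 0.0466). MGST2, a glutathione transferase, rose by 0.57 ± 0.12.

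Other cell types moved beside these genes at 2D2. Of the 4 basal squamous markers 3 rose (ITGA6, ITGB4 and CAV1), of 13 stromal markers 0 passed in limma (0 at an unadjusted p under 0.05), of 8 macrophage markers 1 rose (TYROBP), of 7 columnar markers 5 rose, and of 5 lymphocyte markers 0 passed (1 at an unadjusted p under 0.05). Of 7 adipocyte markers, 4 fell and 1 rose: FABP4 fell by 1.60 ± 0.27 and CD36 by 2.21 ± 0.64, while ADIPOQ was at 0.06 and LPL rose by 0.34 ± 0.09. The adipocyte marker mean ran from −0.89 to −0.04 at 2D2 and from −0.72 to 0.57 at baseline. Of the sebocyte list, FADS2 alone could be tested.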

How the data were processed

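The values are deposited log2 expression values, 1 column per array, between 1.37 and 14.57; affy and Partek are named as tools per the submitters' processing notes, and the background correction and normalization are not given in the sources used here. No further normalization was applied. From 52865 probe sets, 158 controls and then those with a mean below the 40th percentile (log2 5.53) were removed, which left 31624. A gene was read through its brightest probe set with 1 gene symbol; 23 of the lipid genes have more than 1. The pair of arrays labelled as duplicates was averaged (57 samples).

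Linear models were fitted with limma 3.58.1 (statmod 1.5.0) in R 4.3.3, with the animal as a fixed block, so that replicates of 1 animal are paired, and p-values were adjusted by Benjamini-Hochberg over all probe sets kept. Every adjusted p in the text is from limma. The 11 comparisons were 4 treated times against baseline, later against earlier time in each arm, DMPA against LNG, luteal against follicular, late luteal against early follicular, the DMPA dose slope and LNG High against Low. The models were tested on simulated data.

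Genes given with their sample values are the 8 largest changes that passed at 2D2, the 4 with the smallest p in the luteal comparison, and INSIG1, SREBF1, SREBF2 and ABCA12; the others are given by change. Of each list of further genes the 4 with the smallest p at 2D2 were to be named; other names were chosen after their values were seen. The lipid genes, the 4 lists of further pathway genes and the 8 lists of cell type markers were chosen with earlier results of these data known. Alternatives tried were other brightness limits, 1 probe set per gene, the second brightest probe set, median centring, no block, a random block, array weights, covariates, separate phases, arrays left out and each animal left out. Sequences and genome positions are not used here.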

Additional observations from a re-analysis of the deposited data

Results flagged for a closer look

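In groups of 4 to 10 samples, 144 gene and group combinations of the 16 genes given by sample and the list means were examined for a sample far from the others, and 11 had one; chance alone gives about 5% of groups. At 2D2, the animal BB770, at the 0.5 dose, was far above the rest for ALOX12 (11.68, next sample 7.96), DHCR7 (8.94, next 6.46), FASN (8.80, next 7.64) and the sterol synthesis mean (0.42, next −0.88). Also at 2D2, ELOVL1 was far below the rest in BB0540 (8.25, next 9.26). In the late luteal phase, sample 4 of PPi2 was lowest for ELOVL6 (6.57, next 8.79) and CERS3 (8.22, next 9.64). In the early luteal phase, a sample of BB173 was lowest for ALOX12B (9.17, next 11.48) and ALOX15B (10.95, next 11.66). In the early follicular phase, BB108 was lowest for CERS3 (10.08, next 10.67). At the 5th time, BB4800 was far below the other LNG animals for CERS3 (4.51, next 8.95).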

How the results depend on the processing

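The median change of the lipid genes, −0.68 at 2D2 and −0.60 at 1D4, was below 0 in every setting run except at 2D2 with the squamous covariate (0.12), but its size was not stable: it was −0.10 at 2D2 and −0.40 at 1D4 with the GAPDH covariate, −0.37 at 1D4 with the stroma covariate and −0.02 at 1D4 with the squamous covariate. The animal is the replicate block here. Leaving out 1 animal at a time gave 18 to 24 called genes at 2D2 (21 with all), 10 to 25 at 1D4 (23 with all), 0 to 16 at LNG 5th, 0 to 12 at LNG 7th, and 0 to 1 for luteal minus follicular and for late luteal minus early follicular (1 without BB108). Against 0 in the reported fit, LNG 5th had 7 called with a brightness limit at the 60th percentile (3.55% of all probe sets called in that setting), 4 with 1 probe set per gene (1.77%), 6 with a random replicate block (2.39%), 6 with array weights (5.40%), 12 with separate phases (5.72%), 15 without arrays marked A- (9.29%), 11 without late luteal sample 4 (3.31%) and 17 without late luteal sample 1 (7.73%). LNG 7th had 8 at the 60th percentile (2.66%), 3 with median centring (0.708%), 4 with a random replicate block (1.68%), 20 with array weights (11.3%), 13 with separate phases (6.17%), 1 without arrays marked A- (0.218%), 12 without late luteal sample 4 (3.62%), 20 without late luteal sample 1 (10.2%) and 7 without the 5th-time sample of BB4800 (2.16%). Luteal minus follicular had 5 with a random replicate block (10.9%), 2 with array weights (5.70%) and 5 with the squamous covariate (6.66%). LNG High minus Low had 1 with no replicate block (0.452%). With no replicate block 23 genes were called at 2D2 and 17 at 1D4, and with a random block 24 and 24. For the DMPA counts in this section the share of all probe sets called is not given. At 1D4 the second brightest probe sets gave 14 of 22, the GAPDH covariate 9, and the stroma and squamous covariates 0. At 2D2 the GAPDH and squamous covariates gave 0. With the GAPDH covariate CYP51A1 (0.05) and DEGS2 (0.13) turned sign at 2D2. With the squamous covariate these did so at 2D2: MVK 0.19, MVD 0.13, IDI1 0.24, SQLE 0.22, CYP51A1 0.27, EBP 0.08, INSIG1 0.00, ELOVL6 0.44, ELOVL7 0.32, CERS3 0.35, DEGS2 0.17, ABCA12 0.01, ALOX12 0.38 and ALOX12B 0.10; and at 1D4: IDI1 0.04, CYP51A1 0.08, NSDHL 0.05, ELOVL6 0.26, CERS3 0.14, DEGS2 0.02, ABCA12 0.06 and ALOX15B 0.15. The cause was not tested. The squamous covariate and leaving out late luteal sample 4, late luteal sample 1 or the 5th-time sample of BB4800 were chosen after seeing the data. Small groups and whole biopsies limit what can be told: 6 LNG animals and the phases of 4 and 5 samples give wide intervals, and dim probe sets on a rhesus array may understate changes in this species.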
